A study of Mus musculus with 6 samples.

Results

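Genes that the ERK pathway switches on, as output or to restrain itself, were followed in the colonic crypts of mice given GSK503. GSK503 inhibits EZH2, the methyltransferase that places the repressive mark H3K27me3. Of the 18049 genes in the table, 10 were chosen by name for these roles. The feedback genes were the MAP kinase phosphatases *Dusp4*, *Dusp5* and *Dusp6*, the Sprouty genes *Spry1*, *Spry2* and *Spry4*, and the Spred genes *Spred1* and *Spred2*. The output genes were the ETS factors *Etv4* and *Etv5*. All 10 were in the table, and all 10 passed the filter on low values, as did 16670 of all genes. The rule used gene names, and earlier results of these data were known when it was written. None of the 10 passed an adjusted p of 0.05. *Dusp6*, *Etv4* and *Spry4* were higher in every GSK503-treated mouse than in every control mouse, as were 9.84% of all genes tested. For *Spry4* the groups overlapped under scaling by library size. *Dusp6* came nearest to the threshold (1.33-fold, adjusted p = 0.0505 by limma).

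ERK is the last kinase of a cascade in which growth factors bind receptor tyrosine kinases, the receptors load RAS with GTP, and RAS starts a relay from RAF to MEK to ERK. Active ERK enters the nucleus and raises transcription of genes whose products then act against the cascade at several points. The phosphatases remove phosphate from ERK itself, *Dusp6* in the cytoplasm and *Dusp4* and *Dusp5* in the nucleus. Sprouty and Spred proteins act further up, between receptor and RAF, and Spred proteins bring neurofibromin, a RAS GTPase-activating protein, to the membrane. *Etv4* and *Etv5* encode transcription factors of the PEA3 group, which carry part of the response to growth factors. Transcripts of these genes are widely used as readouts of ERK pathway output, and in the intestinal crypt EGF receptor signaling sustains stem cell division.

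Colonic crypts of 3 control mice and 3 GSK503-treated mice each gave 1 library of total RNA. All mice, controls included, were of the same engineered model on a C57BL/6J background. Cre under the *Villin* promoter acts in the intestinal epithelium, and the TGF-β receptor II gene carries a humanized knock-in with a poly(A) repeat. Both groups ate a Western-style diet. Treated mice received GSK503 at 200 μg/kg in the tail vein, and control mice received 20% captisol in PBS. The study's methods call the injections biweekly, read here as 2 per week. The age at tissue collection is not given in the sources used here. Sex-linked transcripts also divided the groups, although the study's methods describe mice of both sexes: *Xist*, expressed from the inactive X chromosome of females, lay between 0.419 and 0.936 in controls and between 825 and 1236 in the treated mice, and the Y-linked genes *Ddx3y*, *Kdm5d* and *Eif2s3y* lay between 51.3 and 91.7 in controls and between 0 and 0.20 in the treated mice, with *Uty* between 42.5 and 53.7 and between 0.670 and 1.08. Treatment and sex therefore cannot be told apart in any result that follows, and whether the groups were of 1 sex each or libraries carry a wrong label was not tested.

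Values are CPM, the estimated counts of a gene relative to the TMM-scaled size of its library. The estimated totals were 108160400 to 135082335 counts per library, and 3 counts are worth 0.0228 to 0.0271 CPM, a limit that covers counting error only. The lowest value of any of the 10 genes, *Spry4* in control mouse 2, rests on an estimated 236 counts. The epithelial markers *Krt8*, *Epcam*, *Cldn7*, *Cdh1* and *Vil1* summed to between 8884 and 9757 CPM in controls and between 9418 and 10779 CPM in the treated mice, against 4.26 to 122 CPM for 6 smooth muscle markers over all mice. GSK503 mouse 3 stood apart in its stroma: the smooth muscle sum was 122 CPM there, 4.52 and 4.26 CPM in the other treated mice, and 20.9, 90.1 and 46.2 CPM in the control mice. All 6 goblet cell markers were higher in every treated mouse (summed 31336 to 49874 CPM against 10122 to 18316 CPM, most of it *Clca1* and *Fcgbp*), the 4 tuft cell markers summed to 43.1 to 49.5 CPM against 22.7 to 34.3 CPM, and the 5 enteroendocrine markers, led by *Chgb*, summed to 118 to 153 CPM against 188 to 235 CPM. The part of these shifts in the results was not tested, and in bulk RNA fewer cells of a type and less RNA per cell cannot be told apart.

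Promoter windows are shown for *Etv4* and *Etv5*, which belong to the same group and differed in level change, for *Dusp6*, which came nearest to the threshold, and for *Dusp4*, the phosphatase whose window holds CIC octamers as that of *Etv4* does. Capicua (CIC) is a repressor that sits at its targets until ERK signaling releases it, and the PEA3 genes are its best known targets. The windows are the 300 bases before the canonical start in GRCm39 (GENCODE), read 5′ to 3′ on the strand of the gene, with motif letters in capitals: the CIC octamers TGAATGAA and TGAATGGA, the ETS core CGGAAG and the AP-1 site TGACTCA, on either strand.
Etv4, chr11:101676198-101676497, minus strand: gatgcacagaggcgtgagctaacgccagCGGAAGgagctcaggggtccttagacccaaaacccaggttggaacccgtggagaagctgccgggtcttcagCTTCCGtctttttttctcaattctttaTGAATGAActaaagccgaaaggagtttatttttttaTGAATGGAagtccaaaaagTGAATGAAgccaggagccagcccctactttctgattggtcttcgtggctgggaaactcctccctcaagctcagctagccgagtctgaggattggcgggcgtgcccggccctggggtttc
Etv5, chr16:22258484-22258783, minus strand: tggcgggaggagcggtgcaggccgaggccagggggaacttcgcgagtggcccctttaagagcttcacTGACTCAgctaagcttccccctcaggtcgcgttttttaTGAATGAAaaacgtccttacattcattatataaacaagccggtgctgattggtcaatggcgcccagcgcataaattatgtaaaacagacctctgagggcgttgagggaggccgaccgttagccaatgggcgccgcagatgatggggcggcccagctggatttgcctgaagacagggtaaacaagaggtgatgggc
Dusp6, chr10:99098768-99099067, plus strand: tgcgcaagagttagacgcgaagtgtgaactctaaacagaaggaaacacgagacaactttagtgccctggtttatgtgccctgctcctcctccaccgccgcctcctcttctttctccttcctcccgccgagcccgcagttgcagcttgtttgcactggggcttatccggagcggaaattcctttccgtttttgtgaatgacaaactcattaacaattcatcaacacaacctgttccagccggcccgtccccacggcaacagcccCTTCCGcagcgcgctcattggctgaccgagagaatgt
Dusp4, chr8:35274142-35274441, plus strand: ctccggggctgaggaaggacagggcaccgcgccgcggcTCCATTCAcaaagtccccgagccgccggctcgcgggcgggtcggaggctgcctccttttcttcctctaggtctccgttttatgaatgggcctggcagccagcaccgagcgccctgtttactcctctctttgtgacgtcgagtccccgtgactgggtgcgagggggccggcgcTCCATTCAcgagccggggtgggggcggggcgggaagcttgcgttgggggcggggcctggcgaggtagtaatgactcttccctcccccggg

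In the *Etv4* window 3 octamers lie at -174 to -167, -138 to -131 and -119 to -112 from the start, with ETS cores at -272 to -267 and -201 to -196. The *Etv5* window holds 1 octamer at -195 to -188 and an AP-1 site at -233 to -227. The *Dusp6* window holds an ETS core on the reverse strand at -37 to -32, and the *Dusp4* window holds octamers on the reverse strand at -262 to -255 and -90 to -83. With all 4 octamer spellings (TGAATGAA, TCAATGAA, TGAATGGA and TCAATGGA, both strands), 4 of the 10 windows held a match (*Dusp4*, *Spry4*, *Etv4* and *Etv5*), against 3.79% of 21751 windows of protein-coding genes of the same length. The *Spry4* window and the place of its match are not reported here. The ETS core was in 2 of the 10 (*Dusp6* and *Etv4*) and in 15.5% of all windows, and the AP-1 site (TGACTCA or TGAGTCA) was in 1 and in 4.74%. The CRE TGACGTCA was in 0 of the 10 and in 1.75% of all windows, and the CArG box, bound by serum response factor, was in 1 (*Dusp5*, at -38 to -29 and -28 to -19) and in 1.70%. None of the matches in the printed windows overlapped another. A match of letters is a description of the window and says nothing of binding in these crypts.

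The 3 genes without overlap between the groups came from 3 different families. *Dusp6* (ENSMUSG00000019960, chromosome 10, 99086564 to 99103361, plus strand) encodes the ERK-specific phosphatase of the cytoplasm. It measured 55.2, 50.3 and 48.8 CPM in control mice 1, 2 and 3 and 70.1, 65.8 and 69.2 CPM in GSK503 mice 1, 2 and 3. The treated mice lay close together and all above the highest control. The means were 51.4 ± 3.32 and 68.4 ± 2.27 CPM (SD, n = 3 each), a log2 difference of 0.41 (standard error 0.077, 95% interval 0.24 to 0.59, limma adjusted p = 0.0505). Robust empirical Bayes gave an adjusted p of 0.0447 and a filter of at least 1 CPM in every mouse gave 0.0478, with the 17 alternatives ranging up to 0.229. With library size as the scaling the log2 difference was 0.30 (limma adjusted p = 0.0815). With epithelial markers as the scaling it was 0.31 (limma adjusted p = 0.0998). Annotated antisense transcripts cover 23.0% of its exon length, 22.4% of that of *Dusp5*, 19.1% of *Spry1*, 10.96% of *Spry2*, 9.84% of *Etv4* and 8.47% of *Etv5*, and the strand setting of the authors' counting is not given in the sources used here.

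*Etv4* (ENSMUSG00000017724, chromosome 11, 101660568 to 101676197, minus strand) had the largest log2FC of the 10. It measured 8.33, 5.41 and 7.53 CPM in controls and 12.8, 13.1 and 9.60 CPM in the treated mice. GSK503 mice 1 and 2 were close together, while GSK503 mouse 3, the mouse with the most smooth muscle RNA, lay nearest to the controls. The means were 7.09 ± 1.51 and 11.8 ± 1.93 CPM (SD, n = 3 each), 1.67-fold apart, with a log2FC of 0.74 (standard error 0.19, 95% interval 0.30 to 1.17, limma adjusted p = 0.135). Without GSK503 mouse 3 the log2FC was 0.88 with an adjusted p of 0.0771, and without GSK503 mouse 2 it was 0.66 with an adjusted p of 0.457. With the smooth muscle markers as a covariate the log2FC was 0.54 with an adjusted p of 0.225. The part of stroma in the value of GSK503 mouse 3 was not tested.

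*Spry4* encodes a Sprouty protein that blocks RAS activation downstream of growth factor receptors. Its level was 2.73, 2.13 and 2.57 CPM in controls and 4.40, 3.36 and 2.81 CPM in the treated mice. The groups were separated by a narrow gap, between GSK503 mouse 3 and control mouse 1. The means were 2.48 ± 0.307 and 3.52 ± 0.806 CPM (SD, n = 3 each), 1.42-fold apart, with a log2FC of 0.48 (standard error 0.24, 95% interval -0.05 to 1.0, limma adjusted p = 0.432). Under scaling by library size the groups overlapped, at 2.72 CPM in GSK503 mouse 3 and 2.77 CPM in control mouse 1. The log2FC was 0.31 without GSK503 mouse 1 and 0.62 without GSK503 mouse 3.

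**Figure D1:**
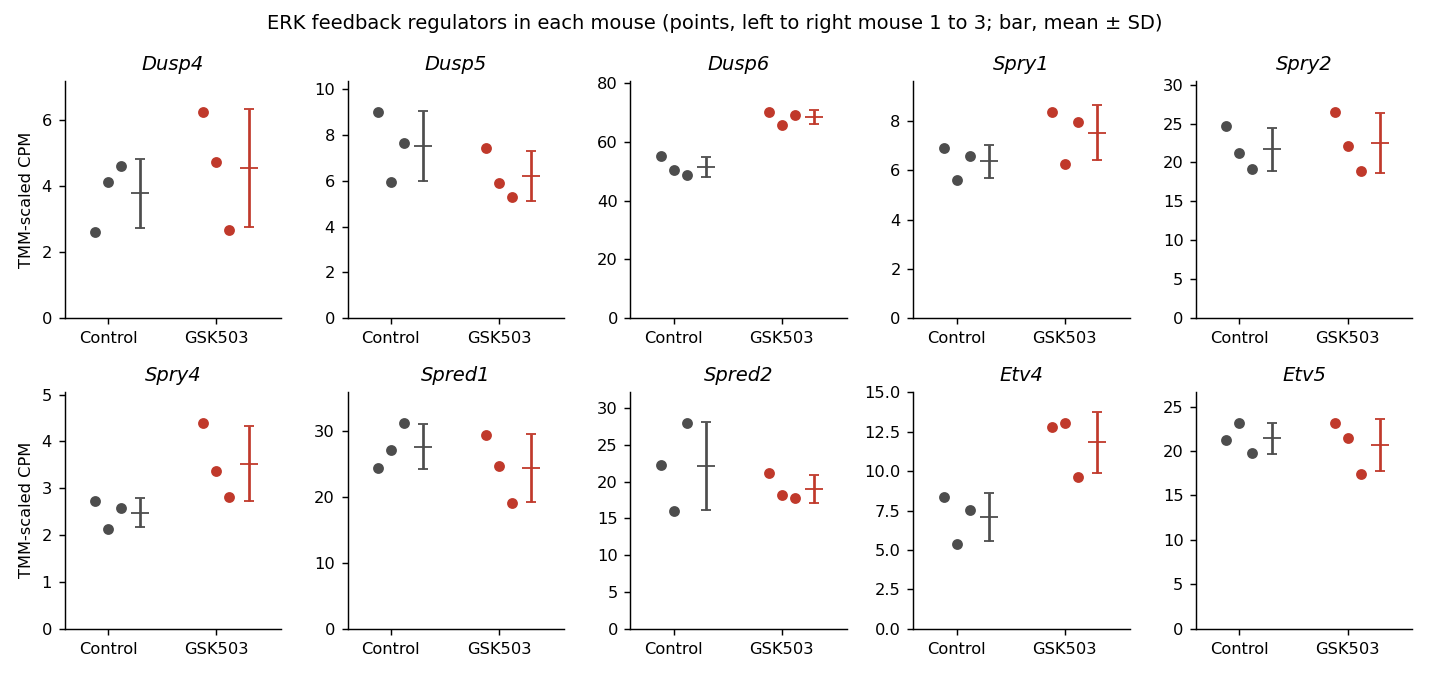
Level of each of the 10 genes (vertical axis, TMM-scaled CPM from 0) in the 3 control mice (grey) and 3 GSK503-treated mice (red), with points for mice 1 to 3 from left to right and the mean ± SD beside them. The red points lie above all grey points for *Dusp6*, *Spry4* and *Etv4*, and overlap them in the other 7 panels.

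Among the nuclear phosphatases neither gene separated the groups. *Dusp4* measured 2.61, 4.11 and 4.59 CPM in controls and 6.23, 4.73 and 2.67 CPM in the treated mice. GSK503 mouse 1 had the highest value and GSK503 mouse 3 lay next to the lowest control, and the log2FC was 0.22 (95% interval -0.51 to 0.95, limma adjusted p = 0.820). *Dusp5* measured 9.01, 5.96 and 7.64 CPM in controls and 7.44, 5.90 and 5.30 CPM in the treated mice. Its means of 7.54 ± 1.53 and 6.21 ± 1.10 CPM (SD, n = 3 each) differed by a log2FC of -0.27 (95% interval -0.71 to 0.18, limma adjusted p = 0.605). The interval of *Dusp4* holds changes of either sign larger than the estimate for *Dusp6*.

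Of the other Sprouty genes, *Spry1* measured 6.90, 5.61 and 6.60 CPM in controls and 8.37, 6.26 and 7.95 CPM in the treated mice. GSK503 mouse 2 lay inside the control range and the other treated mice lay above it, with a log2FC of 0.23 (95% interval -0.15 to 0.61, limma adjusted p = 0.600). *Spry2*, the most abundant Sprouty gene per length in these crypts, measured 24.7, 21.3 and 19.2 CPM in controls and 26.5, 22.1 and 18.9 CPM in the treated mice. The ranges were nearly the same, with a log2FC of 0.05 (95% interval -0.27 to 0.37, limma adjusted p = 0.928), and its sign turned with library size scaling (-0.07).

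The Spred genes, which link receptors to neurofibromin, had lower means in treated mice but overlapping values. *Spred1* measured 24.5, 27.2 and 31.3 CPM in controls and 29.4, 24.7 and 19.2 CPM in the treated mice, with a log2FC of -0.19 (95% interval -0.54 to 0.16, limma adjusted p = 0.640). *Spred2* measured 22.2, 16.1 and 28.0 CPM in controls and 21.2, 18.2 and 17.7 CPM in the treated mice. The treated mice all lay inside the range of the controls, and the log2FC was -0.18 (95% interval -0.59 to 0.23, limma adjusted p = 0.717).

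*Etv5*, the partner of *Etv4* in the PEA3 group, measured 21.3, 23.2 and 19.8 CPM in controls and 23.1, 21.5 and 17.5 CPM in the treated mice. Its means were 21.4 ± 1.71 and 20.7 ± 2.92 CPM (SD, n = 3 each), with a log2FC of -0.06 (95% interval -0.33 to 0.22, limma adjusted p = 0.897). The interval of *Etv5* ends below the lower bound for *Etv4* of 0.30, and the difference between these genes is given as a within-library ratio further on.

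**Figure D2:**
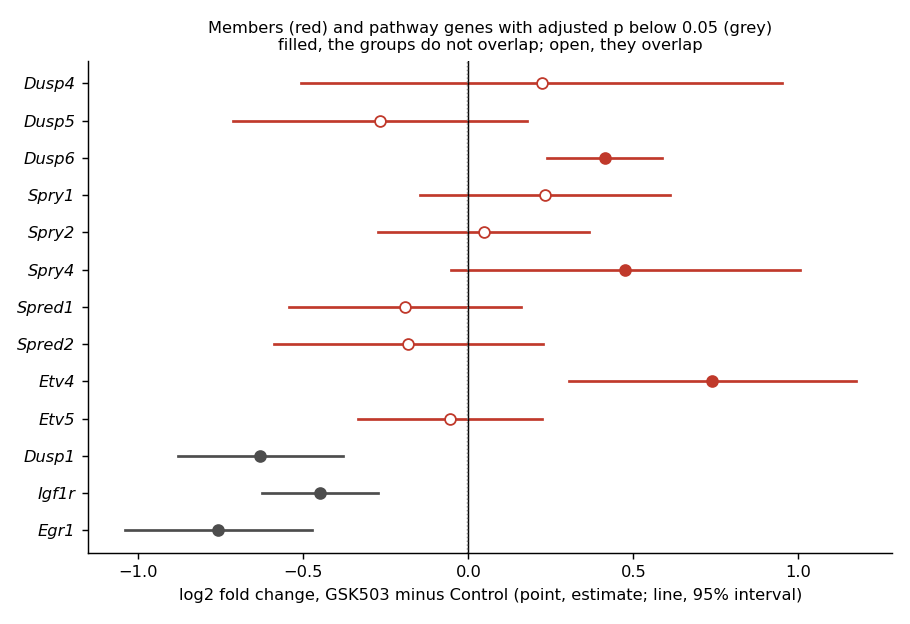
log2FC (horizontal axis, GSK503 minus control, limma estimate with its 95% interval) of the 10 genes in red and of *Dusp1*, *Igf1r* and *Egr1* in grey, with filled points where the groups did not overlap and a dotted line at the median of all genes (-0.01). The intervals of *Dusp6* and *Etv4* are the ones of the 10 that do not reach 0, and the 3 grey genes lie below it.

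As a group, the mean of 6 of the 10 was higher after GSK503 and that of 4 lower, with a median log2FC of 0.13 against -0.01 over all genes tested. At an adjusted p below 0.05, 0 of the 10 were called, where 0.498% of all genes tested were called higher and 0.144% lower by limma, and limma-voom on the estimated counts also called 0. At an adjusted p below 0.1, *Dusp6* was called higher and 0 were called lower, where all genes gave 1.41% higher and 0.558% lower. At an unadjusted p below 0.05, 2 of the 10 were higher (*Dusp6* and *Etv4*) and 0 were lower, where all genes gave 7.06% higher and 6.27% lower, and limma-voom gave 2 as well. The 3 treated mice were all above the 3 controls for 3 of the 10 genes and all below for 0, against 9.84% and 9.22% of all genes. Scaling by library size, which shifted the median of all genes to -0.12, left 2 of these 3 without overlap, against 4.78% of all genes above and 21.2% below under that scaling, and 5 of the 10 with a higher log2FC than 0. An exact two-sided permutation test of 3 mice against 3 cannot give a p below 0.1, the value that *Dusp6*, *Etv4* and *Spry4* had.

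Ratios within a library do not depend on the scaling between libraries, so members of a family were compared in this way. Of 8 pairs within the families, 3 had no overlap between the groups, each with an exact two-sided permutation p of 0.1 (0.267 after Benjamini-Hochberg adjustment over the 8). *Dusp6* over *Dusp5* was 6.12, 8.43 and 6.39 in controls and 9.43, 11.2 and 13.1 in the treated mice, a difference of 0.69 on the log2 scale. *Spry4* over *Spry2* was 0.111, 0.1004 and 0.134 in controls and 0.166, 0.152 and 0.149 in the treated mice. *Etv5* over *Etv4* was 2.55, 4.29 and 2.63 in controls and 1.81, 1.65 and 1.82 in the treated mice, a log2 difference of -0.80. In each of these 3 pairs the ratio moved toward the member with the higher log2FC. That direction was already set by the log2FC of the members and is not a separate result. Each pair holds *Dusp6*, *Spry4* or *Etv4*, already without overlap, and the share among other gene pairs was not computed. The other 5 ratios overlapped. *Spry4* over *Spry1* was 0.354 in GSK503 mouse 3 against 0.381 to 0.395 in controls, and *Dusp6* over *Dusp4* overlapped as well. *Spred2* over *Spred1* was 0.798 ± 0.179 in controls and 0.794 ± 0.114 in treated mice (SD, n = 3 each).

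Per kb of annotated exon, *Dusp6* was the most abundant of the 10, at 15.2 ± 0.980 CPM per kb in controls and 20.2 ± 0.670 CPM per kb in the treated mice (SD, n = 3 each), clear of all others. In the control mice *Spry2* (4.21 ± 0.539), *Spred2* (3.63 ± 0.979), *Spred1* (3.56 ± 0.442), *Dusp5* (3.04 ± 0.616) and *Etv5* (2.85 ± 0.228 CPM per kb) followed, and each overlapped its neighbour in this order. *Etv4* (2.24 ± 0.477), *Spry1* (1.34 ± 0.142) and *Dusp4* (1.31 ± 0.358 CPM per kb) came next, the last pair overlapping, and *Spry4* was lowest at 0.375 ± 0.0465 CPM per kb, below *Dusp4* in every control mouse. In the treated mice *Etv4* averaged 3.73 ± 0.608 CPM per kb and *Etv5* 2.76 ± 0.389 CPM per kb, the reverse of their order in the control mice, with ranges that overlapped. Within each treated mouse *Etv4* lay above *Etv5*, and within each control mouse it lay below. Exon lengths are of all annotated exons of a gene, so these levels shift with the transcripts in use.

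The treated mice varied among themselves in a shared way. For 7 of the 10 genes (*Dusp4*, *Dusp5*, *Spry2*, *Spry4*, *Spred1*, *Spred2* and *Etv5*) GSK503 mouse 1 had the highest value of the treated mice and GSK503 mouse 3 the lowest, an order that 23.7% of all genes tested had and that was noticed after the values were seen. *Dusp6*, *Etv4* and *Spry1* did not have it. GSK503 mouse 3 also held the most smooth muscle, fibroblast and macrophage RNA, with fibroblast markers summing to 107 CPM there and to 24.5 and 33.6 CPM in GSK503 mice 1 and 2, and the part of this in the order was not tested.

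**Figure D3:**
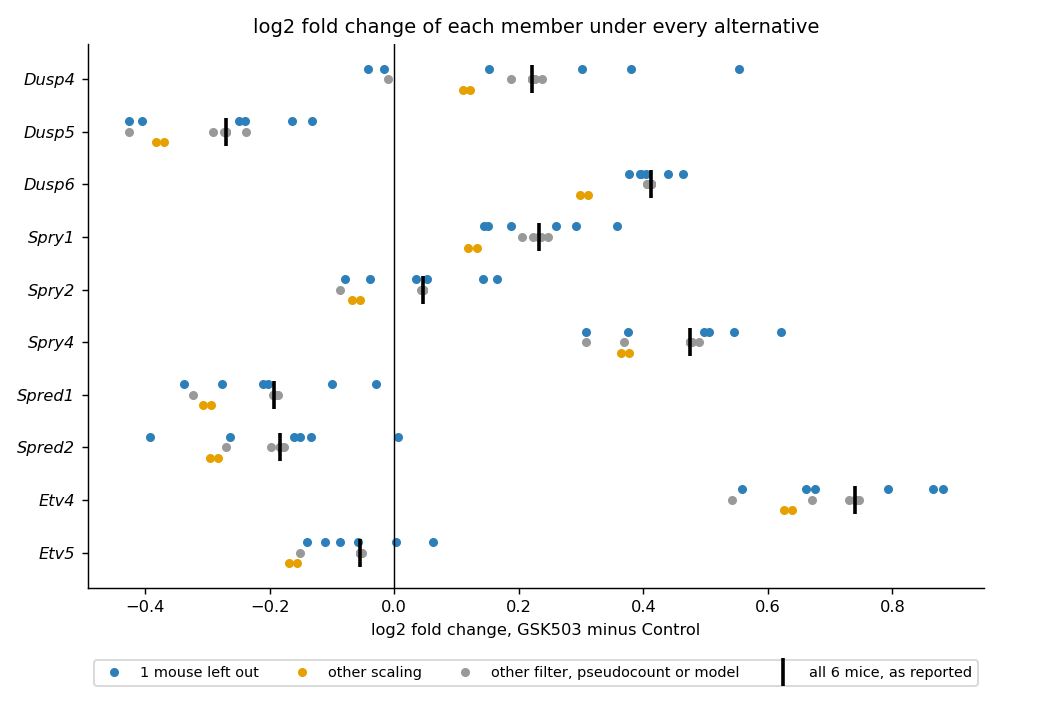
log2FC of each of the 10 genes (horizontal axis, GSK503 minus control) as reported (black bar), with 1 mouse left out (blue), under another scaling (yellow) and under another filter, pseudocount or model (grey). All points lie above 0 for *Dusp6*, *Spry1*, *Spry4* and *Etv4* and below 0 for *Dusp5* and *Spred1*, and those of *Dusp4*, *Spry2*, *Spred2* and *Etv5* fall on both sides.

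The rest of the pathway was read from lists by role, 94 genes in all, of which 92 were tested. Of the 92, the mean of 32 was higher after GSK503 and that of 60 lower (median log2FC -0.10), 0 passed as higher and 3 passed as lower at an adjusted p below 0.05, beside 0.144% of all genes called lower. The treated mice were all below the controls for 23 of the 92 and all above for 6, against 9.22% and 9.84% of all genes, and under library size scaling 21.2% of all genes were below. With library size or epithelial markers as the scaling, 11 and 10 were called lower in place of 3, while the median of all genes moved to -0.12 and -0.10.

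Ligands are the entry to the pathway. Of 14 tested, 7 had a higher and 7 a lower mean. In either direction 0 passed the test, where 0.498% of all genes were called higher and 0.144% lower. *Hgf*, the stromal ligand of MET, measured 2.56, 1.28 and 4.37 CPM in controls and 0.754, 0.319 and 0.424 CPM in the treated mice (log2FC -2.15, limma adjusted p = 0.0761). *Hbegf*, an EGF receptor ligand, measured 138, 111 and 120 CPM and then 103, 80.2 and 60.3 CPM (log2FC -0.62, limma adjusted p = 0.143). All treated mice were below all controls for both, as for 3 of the 14 ligands in all and for 9.22% of all genes tested. Under library size scaling 21.2% of all genes were below.

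Of all 16670 genes tested, 8159 had a higher and 8511 a lower mean, with 0.498% called higher and 0.144% called lower. Of 13 receptor tyrosine kinases tested, 3 had a higher and 10 a lower mean, 0 rose and 1 fell. This was *Igf1r*, the receptor of insulin-like growth factors, at 42.8, 42.5 and 46.5 CPM in controls and 32.6, 32.0 and 31.6 CPM in the treated mice (log2FC -0.45 with a standard error of 0.078, limma adjusted p = 0.0415). The treated mice were nearly equal and all lower. Leaving out any 1 mouse ended this call, with an adjusted p between 0.0577 (GSK503 mouse 3) and 0.216 (GSK503 mouse 2). The smooth muscle covariate (0.0779), no filter (0.0510), no intensity trend (0.211) and a replicate block ended it too. *Erbb4* did not pass the filter on low values.

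Between receptor and ERK, 0 genes passed in either direction. Of 7 other receptor-level inhibitors tested, 2 had a higher and 5 a lower mean; *Errfi1*, which binds and blocks the EGF receptor, was above in every treated mouse (55.1, 50.6 and 50.2 against 84.6, 63.7 and 57.1 CPM, log2FC 0.38, limma adjusted p = 0.253), and *Cbl*, a ubiquitin ligase for receptors, had a log2FC of -0.30 with overlap (adjusted p = 0.417). *Spry3* was not analysed here. Of 19 genes of the core cascade, 8 had a higher and 11 a lower mean. The smallest p values belonged to *Grb2*, the adaptor that couples receptors to RAS (34.9, 30.7 and 32.3 against 27.2, 26.1 and 25.1 CPM, log2FC -0.32, limma adjusted p = 0.148), and *Mapk3*, which encodes ERK1 (log2FC -0.31, limma adjusted p = 0.212). All 7 RAS GTPase-activating proteins had a lower mean, as did 8511 of the 16670 genes tested. The log2FC was -0.32 for *Nf1*, which encodes neurofibromin, and -0.20 for *Rasa3* (limma adjusted p = 0.280 and 0.317).

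Among the 7 other MAP kinase phosphatases, 4 had a higher and 3 a lower mean. At an adjusted p below 0.05, 0 rose and 1 fell, where 0.498% of all genes were called higher and 0.144% lower. *Dusp1*, an immediate early phosphatase that acts on p38 and JNK as well as ERK, measured 49.3, 41.9 and 54.6 CPM in controls and 29.2, 30.3 and 34.3 CPM in the treated mice. Every treated mouse was lower, by a log2FC of -0.63 (limma adjusted p = 0.0450). *Dusp6* over *Dusp1*, a ratio chosen after the values were seen, was 1.12, 1.20 and 0.895 in controls and 2.40, 2.17 and 2.02 in the treated mice. The call of *Dusp1* ended without control mouse 1 (adjusted p = 0.109), control mouse 3 (0.113), GSK503 mouse 1 (0.115) or GSK503 mouse 2 (0.220). It also ended with the smooth muscle covariate (0.0935), no filter (0.0645), pseudocounts of 0.01 (0.0514) or 1 (0.0508), no intensity trend (0.226) or a replicate block.

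Other transcripts known to respond to ERK lay on the lower side. Of 14 tested, 3 had a higher and 11 a lower mean, 0 rose, 1 fell at an adjusted p below 0.05, and 6 had no overlap, all lower, where 0.144% of all genes were called lower and 9.22% were below without overlap (21.2% under library size scaling). *Egr1*, an immediate early zinc finger factor, measured 64.2, 56.4 and 75.2 CPM in controls and 42.9, 39.6 and 33.0 CPM in the treated mice (log2FC -0.76 with a standard error of 0.13, limma adjusted p = 0.0335). Its call ended without control mouse 1 (0.0841), control mouse 3 (0.0941) or GSK503 mouse 2 (0.152), and with no filter (0.0531), no intensity trend (0.225) or a replicate block. With the threshold at 0.1, *Ier2*, *Fos* and *Epha4*, named after their values were seen, joined *Egr1*. *Fos*, a subunit of the AP-1 factor, measured 444, 395 and 415 CPM in controls and 335, 326 and 312 CPM in the treated mice (log2FC -0.37, adjusted p = 0.0741), and *Ier2* and *Epha4* had log2FC of -0.38 and -0.41.

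**Figure D4:**
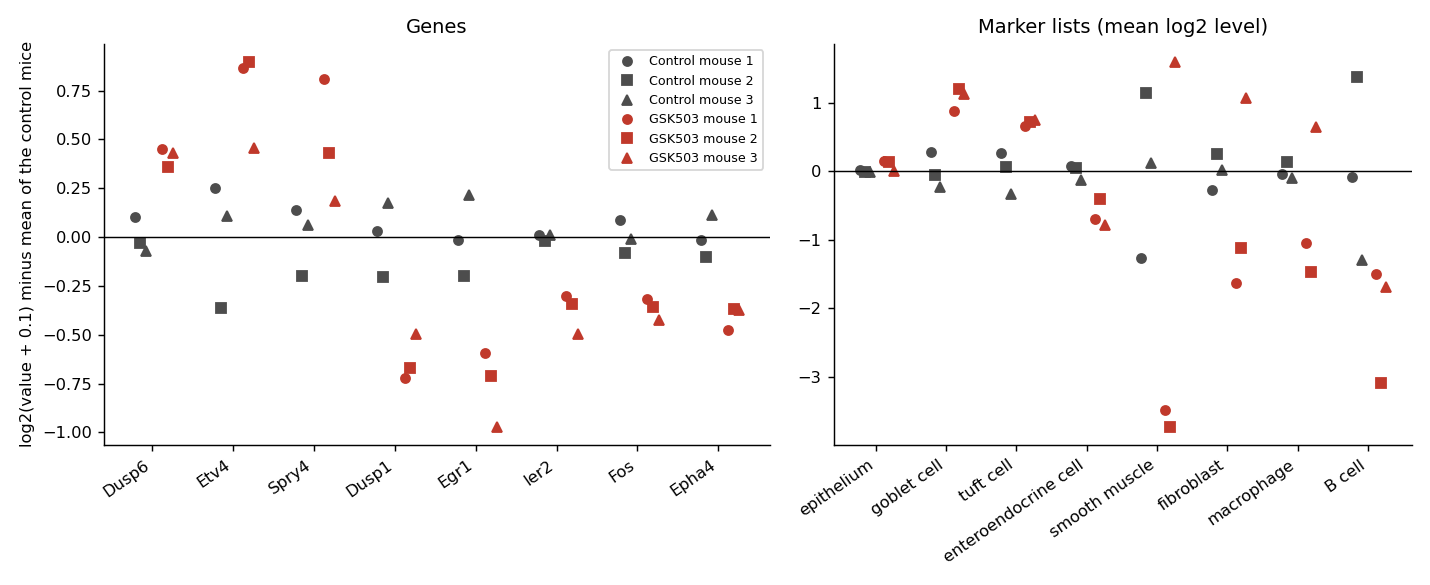
Left, *Dusp6*, *Etv4*, *Spry4*, *Dusp1*, *Egr1*, *Ier2*, *Fos* and *Epha4* in each mouse, and right, the mean log2 level of 8 marker lists, both as the difference in log2(value + 0.1) from the mean of the control mice, with a symbol for each mouse. GSK503 mice 1 and 2 are lowest and GSK503 mouse 3 highest for smooth muscle, while all 3 are above the control mice for *Dusp6*, *Etv4* and *Spry4* and below them for the other 5 genes.

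The transcription factors around *Etv4* and *Etv5* did not pass the test. Of 8 other ETS factors, 4 had a higher and 4 a lower mean, and *Ets1* measured 8.51, 8.60 and 7.77 CPM in controls and 5.76, 5.94 and 4.60 CPM in the treated mice (log2FC -0.61, limma adjusted p = 0.133), while *Elk4* overlapped (log2FC -0.18, adjusted p = 0.627). Of the 3 genes of the CIC repressor complex, *Atxn1l* was slightly below in every treated mouse (50.6, 51.9 and 52.0 against 46.8, 46.7 and 48.5 CPM, log2FC -0.12, limma adjusted p = 0.502). *Cic* itself measured 65.2, 49.0 and 76.5 CPM in controls and 64.4, 55.0 and 56.1 CPM in the treated mice, with overlap (log2FC -0.10, adjusted p = 0.820).

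**Figure D5:**
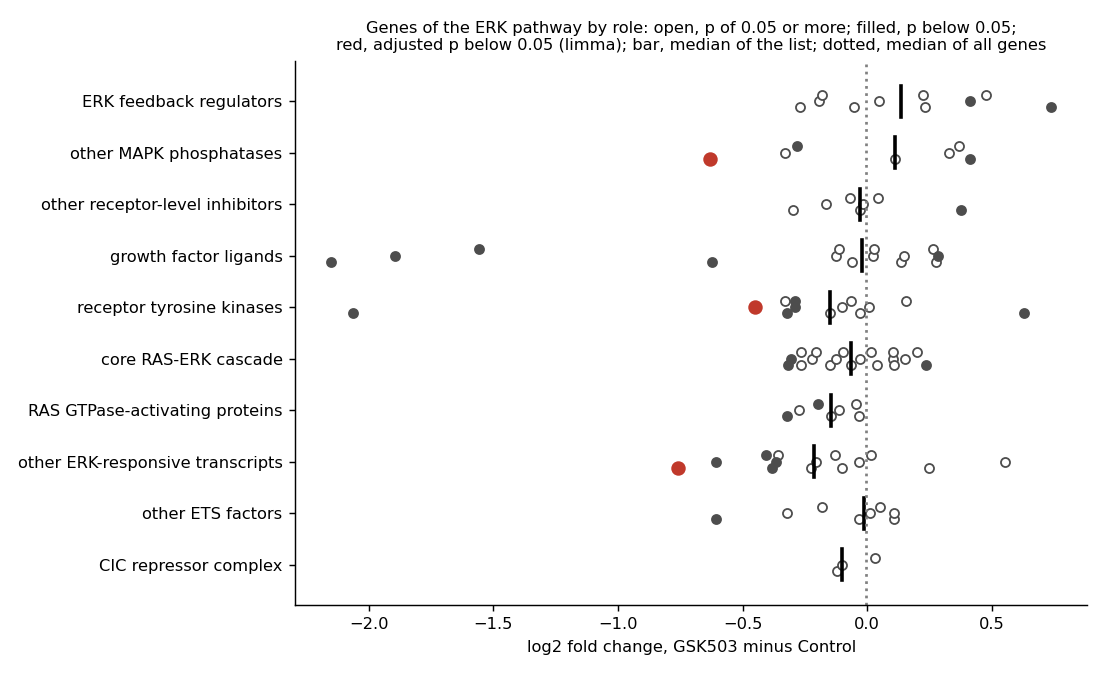
log2FC (horizontal axis, GSK503 minus control) of each tested gene, in 10 rows by role, with open points at an unadjusted p of 0.05 or more, filled points below it, red points at a limma adjusted p below 0.05, a bar at the median of each list and a dotted line at the median of all genes. The 3 red points are *Dusp1*, *Igf1r* and *Egr1*, all left of 0, and the median of the feedback regulators is 0.13 against -0.21 for the other ERK-responsive transcripts.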

How the data were processed

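Total RNA-Seq libraries (Illumina Stranded Total RNA Prep, HiSeq, paired-end 76 bp reads) from crypts of 3 control mice and 3 mice given GSK503 were grouped by the sample labels. The authors aligned reads to GRCm39 with STAR, used RSEM for estimated counts and applied TMM scaling in edgeR, so the deposited signal is a TMM-scaled CPM. Between 82.8% and 85.3% of the values below 2 CPM were whole multiples of a library's step (tolerance 0.01 counts), which gave the totals. Because the values are not raw counts, limma 3.58.1 (R 4.3.3) was fitted on log2(value + 0.1) with an intensity trend over the 16670 genes with at least 0.1 in at least 3 mice (1379 were left out), with Benjamini-Hochberg adjustment over all of them. A log2FC on this scale understates the change of low genes. The fit was tested on simulated data.

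Named are all 10 genes of the group, pathway genes with adjusted p below 0.05 or otherwise the 2 of each list with the smallest p, sex-linked genes, and of the marker lists the genes at 0 (*Lum*, *Cd79a*, *Sox10* and *Elavl4*, each in at least 1 mouse) and the most abundant. Genes outside this rule are said to be named after their values were seen, except *Spry3* and *Erbb4*, named to account for list members without a test. Some items of the mouse model and the marker lists are not reported here. The members and lists were chosen with earlier results of these data known. Alternatives were 2 scalings, 2 filters, 2 pseudocounts, 3 variance models, a replicate block, a smooth muscle covariate and leaving out each mouse. Libraries correlated across genes at 0.976 to 0.990, and 0 pairs were identical. Symbols were matched to GENCODE for positions and exon length. Figures were drawn with Python 3.11.15 and matplotlib 3.10.9.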

Additional observations from a re-analysis of the deposited data

How the results depend on the processing

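The 10 genes kept their direction under all alternatives for *Dusp5*, *Dusp6*, *Spry1*, *Spry4*, *Spred1* and *Etv4*. The log2FC of *Dusp4* turned to -0.0097 with the smooth muscle covariate, and that of *Spry2* to -0.068 with library size, -0.055 with epithelial marker scaling and -0.087 with the covariate. Leaving out each mouse gave ranges of -0.042 to 0.55 for *Dusp4*, -0.078 to 0.16 for *Spry2*, -0.39 to 0.0056 for *Spred2*, -0.14 to 0.062 for *Etv5*, 0.38 to 0.46 for *Dusp6*, 0.56 to 0.88 for *Etv4*, 0.31 to 0.62 for *Spry4*, -0.34 to -0.030 for *Spred1*, -0.43 to -0.13 for *Dusp5* and 0.14 to 0.36 for *Spry1*. *Dusp6* passed 0.05 at the same log2FC of 0.41 with a filter of at least 1 in every mouse and with robust empirical Bayes, so 1 of the 10 was called higher there, as at an adjusted p below 0.1, against 0 as reported. The log2FC of *Dusp6* was lower with library size (0.30) and with epithelial marker scaling (0.31), and *Dusp6* did not pass 0.05 under either. The cause of these changes was not tested.

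Of the other pathway genes, 3 were called lower as reported, 11 with library size, 10 with epithelial markers, 0 without a filter, 0 without the intensity trend and 7 at an adjusted p below 0.1, and 0 to 3 with 1 mouse left out. *Dusp1*, *Igf1r* and *Egr1* passed in 7, 7 and 11 of 17 alternatives. Over all genes, the calls were 83 higher and 24 lower as reported, 9 and 7 without the intensity trend, and 83 and 178 with library size, where 31.8% of calls were higher against 77.6%. Epithelial scaling gave 78 and 107, a share of 42.2%, and robust empirical Bayes gave 109 and 35.

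Deviations from the group means of mice with the same replicate number correlated at r = 0.03, -0.13 and -0.12. Mice with unlike numbers gave r between -0.17 and 0.22. With 3 mice per group these values cannot decide whether the numbers pair mice, and the labels state no pairing. A replicate block left the log2FC of *Dusp6* at 0.41 (adjusted p = 0.123), called 0 of the other pathway genes lower, and gave 23 higher and 10 lower calls over all genes.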

Other observations

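In *Areg*, *Ereg*, *Epha2* and *Fosl1*, named after their values were seen, GSK503 mouse 1 also stood above the other treated mice. *Areg*, an EGF receptor ligand, measured 54.9 CPM in GSK503 mouse 1, 25.3 and 21.1 CPM in GSK503 mice 2 and 3, and 30.1, 28.9 and 31.8 CPM in the control mice. *Ereg*, encoded next to *Areg*, measured 3.67, 1.49 and 1.31 CPM in the treated mice and 1.49, 2.29 and 1.54 CPM in the control mice. The ERK-responsive receptor gene *Epha2* measured 71.8, 40.9 and 27.4 CPM in the treated mice and 32.8, 29.0 and 26.8 CPM in the control mice, and *Fosl1* measured 2.45, 0.770 and 0.555 CPM in the treated mice and 1.13, 1.16 and 1.33 CPM in the control mice. Of the 14 other ERK-responsive transcripts, 10 had their highest treated value in GSK503 mouse 1 and their lowest in GSK503 mouse 3, beside 23.7% of all genes tested. This order held in 1 of 7 other MAP kinase phosphatases, 1 of 7 other receptor-level inhibitors, 1 of 8 other ETS factors and 1 of 3 CIC complex genes. It held in 4 of 14 ligands, 5 of 13 receptor tyrosine kinases, 8 of 19 core cascade genes and 3 of 7 RAS GTPase-activating proteins.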
